A study of Mus musculus with 6 samples.

Results

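The 10 genes Lrrn4, Krt7, Krt8, Krt18, Krt19, Upk1b, Upk3b, Wt1, Msln and Muc16 mark mesothelium, the single layer of flat cells that covers the heart, the root of the aorta and the walls of the body cavities. They were followed in aortic roots of klotho-deficient and wild-type mice. Every probe set (the group of array probes read out as 1 signal) that the platform annotation gave to exactly 1 gene, that gene being on this list, was taken. All 10 genes were found, with 16 probe sets, among 18193 genes with 34945 such probe sets on the array.

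The klotho-deficient group was homozygous mutant at klotho, the gene of a membrane protein through which the hormone FGF23 acts on phosphate handling, and the control group was homozygous wild type. Both were C57BL/6J albino mice aged 6.0 to 6.5 weeks, with no treatment in the labels. The dissected piece held the valve leaflets, the annulus and some of the adjoining aortic wall. Roots of 3 mice were pooled for each array, giving 3 arrays and 9 mice per genotype and 6 arrays in all, so errors describe the spread between pools and not between single mice. The labels name neither the mutation nor the sex of the mice. The question put here is how transcript levels in the root differ when klotho is lost.

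Mesothelial cells are unusual in sharing features of epithelium and of connective tissue: they rest on a basement membrane and hold keratin filaments, but arise from mesoderm. On the heart this layer is the epicardium, which makes retinoic acid and, in the embryo, gives rise to fibroblasts and vascular smooth muscle under the zinc finger transcription factor Wt1. Keratin filaments are built from pairs of a type II chain, such as Krt7 or Krt8, and a type I chain, such as Krt18 or Krt19. Mesothelin (Msln) is a surface protein of these cells that binds the large mucin Muc16, also known as CA125. The uroplakins Upk1b and Upk3b are membrane proteins first described in bladder lining, and Lrrn4 is a leucine-rich repeat membrane protein used as a mesothelial marker.

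The promoter table from RefSeq, on build GRCm38.p6, held 6 of the 10 genes. Of these, the 3 keratin genes on chromosome 15 are shown because Krt7 and Krt8 on one side and Krt18 on the other differed in how their signals lay across the arrays, as described below. Krt8 and Krt18 are neighbours with 2 annotated genes between them, neither of them protein-coding. Each sequence runs from 250 bases before to 30 bases after the annotated gene start, on the gene's own strand, and capitals mark a TATA box (TATAAA) or a GC box (GGGCGG) on either strand.
Krt8, chr15:102004313-102004592, minus strand: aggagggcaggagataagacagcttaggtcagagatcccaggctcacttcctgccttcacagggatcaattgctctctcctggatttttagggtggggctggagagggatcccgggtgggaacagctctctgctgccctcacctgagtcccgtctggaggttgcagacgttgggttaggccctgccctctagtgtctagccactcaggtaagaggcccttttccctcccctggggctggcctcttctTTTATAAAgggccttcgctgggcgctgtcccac
Krt18, chr15:102027966-102028245, plus strand: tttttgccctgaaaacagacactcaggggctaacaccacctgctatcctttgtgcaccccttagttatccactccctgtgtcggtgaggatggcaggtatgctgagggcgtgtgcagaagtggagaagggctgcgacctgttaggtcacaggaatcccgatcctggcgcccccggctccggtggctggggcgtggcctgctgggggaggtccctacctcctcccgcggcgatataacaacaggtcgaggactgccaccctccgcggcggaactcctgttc
Krt7, chr15:101412153-101412432, plus strand: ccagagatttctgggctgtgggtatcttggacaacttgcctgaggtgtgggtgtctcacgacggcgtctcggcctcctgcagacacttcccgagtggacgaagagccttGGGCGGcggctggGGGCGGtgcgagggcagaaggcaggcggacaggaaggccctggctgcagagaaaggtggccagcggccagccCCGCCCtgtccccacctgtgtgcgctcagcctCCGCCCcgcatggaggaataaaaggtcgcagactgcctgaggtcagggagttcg

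Among the 6 member promoters, a TATA box was present in Krt8 alone and GC boxes in Krt7 alone, the latter at 4 places. In the same window, 13.1% of all 32851 promoters in the table held a TATA box and 34.7% a GC box. The letters TGANTCA of an AP-1 site were in 7.46% of all promoters and in 0 of the 6, and a Wt1 element written GCGTGGGNG was in 1.82% of all and in 0 of the 6. These are matches of letters in a short window; the Krt8 match lies across the annotated start.

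All 10 genes were measured well above background. Background was taken as the highest signal among 27 control probe sets for Bacillus genes, 161.8, and the lowest signal of any member probe set on any array was 419.1. The targeted gene, Kl, lay near background, at 181.6 ± 40.08 in the mutant and 184.5 ± 17.7 in the wild-type roots (SD, n = 3), so it did not check the labels. Markers of the labelled tissue were present: the 4 smooth muscle genes, the 4 endothelial genes and both measured elastic wall genes (Eln and Fbln5) were above background, as were the 8 cardiomyocyte genes of the adjoining muscle. Arrays had median signals of 425.6 to 556.6. Control probe sets at the 3' and 5' ends of Gapdh, whose ratio grows as RNA is less complete, gave 7.18 for wild-type replicate 3 against 3.23 to 4.08 for the 5 others; the Actb ratio was 1.07 to 1.18 throughout. The 3 measured Y-linked genes were low on klotho-deficient replicates 2 and 3, with summed signals of 115.0 and 124.2, and summed to 7191.8 to 9156.4 on the other 4 arrays. The Y-linked level, and perhaps the sex makeup of the pools, was thus not balanced between the genotypes. Its part in a difference cannot be fully told apart from that of klotho.

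Most of the mesothelial markers had lower signals in klotho-deficient roots, but none passed the test. The mean log2 signal was lower for 8 of the 10 genes, against 49.6% of all genes, and higher for 2, Krt18 and Muc16. The median over the 10 of the log2 difference, taken throughout as klotho-deficient minus wild type, was -0.66, against 0.003 over all 18193 genes. Limma, a linear model with variances shared across genes, called 0 of the 10 at an adjusted p under 0.05. Across all genes it called 0, or 0% of them. At an unadjusted p under 0.05 there were 0 of the 10 members and 1166 of all genes (6.41%, of which 3.25% higher and 3.16% lower). The members' adjusted p-values ran from 0.77 to 0.991, and the 95% interval of the difference included 0 for all 10. In bulk tissue, fewer mesothelial cells and less of these RNAs per cell cannot be told apart.

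In 4 genes, Lrrn4, Krt19, Upk3b and Wt1, every klotho-deficient array lay below every wild-type array. Of all genes, 6.84% lay wholly lower in this way. No member lay wholly higher, against 6.63% of all genes; the 2 directions together came to 13.5%. The members were chosen with earlier results of these arrays known, so their count is a description beside that share.

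**Figure D1:**
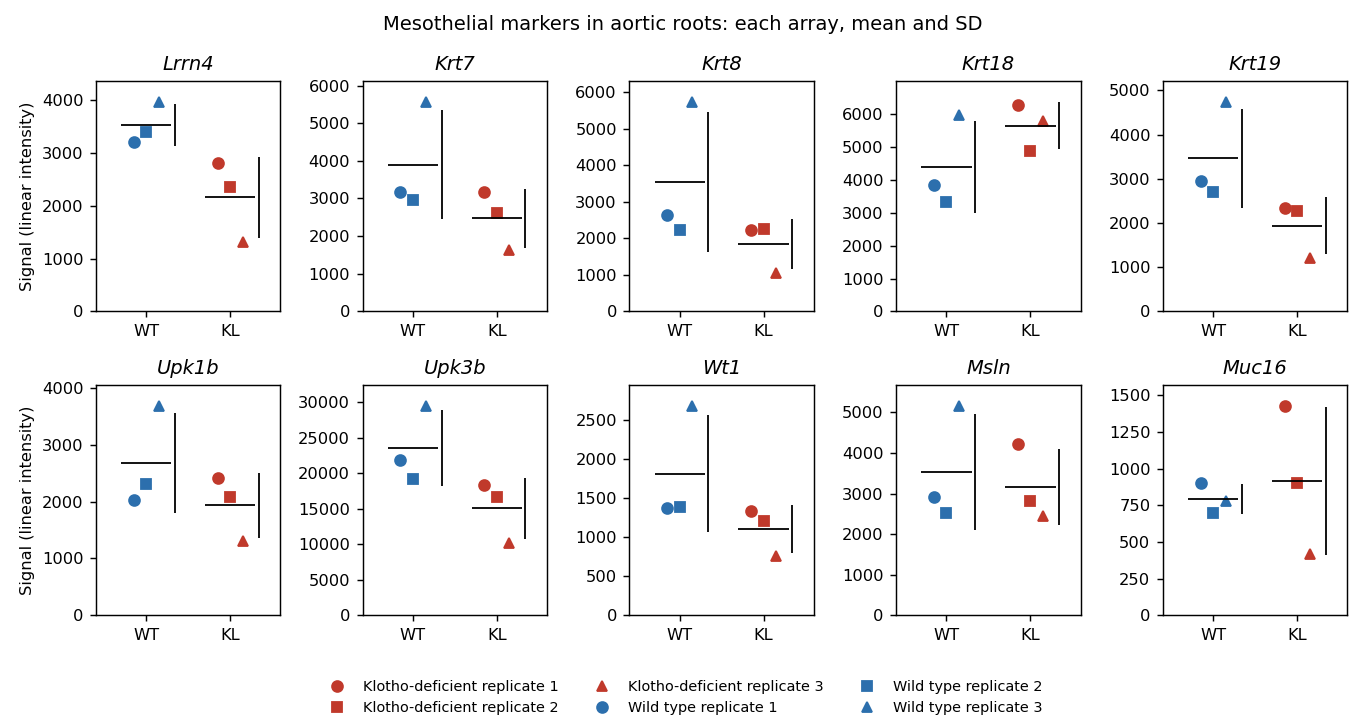
Signal of each of the 10 mesothelial markers (linear intensity, y axis from 0) on the 3 wild-type (WT, blue) and 3 klotho-deficient (KL, red) arrays; the horizontal line is the mean and the vertical line the SD over 3 arrays. Triangles are replicate 3 of each genotype: the blue triangle is the highest point in 8 of 10 panels and the red triangle the lowest in 9 of 10.

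Lrrn4 was the member of smallest p. Its signals were 2814.8, 2344.8 and 1318.8 on klotho-deficient replicates 1, 2 and 3 and 3196.9, 3391.7 and 3958.8 on wild-type replicates 1, 2 and 3. The genotypes did not overlap, and the lowest array by far was klotho-deficient replicate 3. The means were 2159.5 ± 765.0 and 3515.8 ± 395.8 (SD, n = 3), a difference of -0.77 ± 0.32 (SE) with a 95% interval of -1.54 to 0.005 and an adjusted p of 0.77 in limma.

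Among the keratins, Krt19, a type I chain that is the smallest keratin, measured 2349.4, 2278.2 and 1201.3 on the klotho-deficient arrays and 2954.3, 2693.4 and 4739.8 on the wild-type arrays. Replicates 1 and 2 of the 2 genotypes lay close together, and the replicate 3 arrays lay far out on either side. The difference was -0.85 ± 0.36 (adjusted p = 0.77), or 1.80-fold lower in klotho-deficient roots.

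Krt7, a type II chain, measured 3180.6, 2604.3 and 1620.7 in klotho-deficient roots and 3183.3, 2951.1 and 5562.7 in wild type. Replicate 1 gave nearly the same signal in both genotypes, and wild-type replicate 2 lay below klotho-deficient replicate 1. The difference was -0.65 ± 0.36 (adjusted p = 0.813).

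Krt8, the type II partner of Krt18, measured 2219.7, 2245.7 and 1054.3 on the klotho-deficient arrays and 2646.9, 2224.4 and 5739.3 on the wild-type arrays. Wild-type replicate 2 fell inside the klotho-deficient range, and wild-type replicate 3 was 2.17-fold above the next wild-type array. The difference was -0.89 ± 0.47 (adjusted p = 0.804). The gene's other 2 probe sets gave -0.61 ± 0.53 and -0.78 ± 0.47, also highest on wild-type replicate 3 and lowest on klotho-deficient replicate 3.

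Krt18 had a different order of arrays. It measured 6283.4, 4873.1 and 5781.1 on the klotho-deficient arrays and 3853.0, 3320.6 and 5980.2 on the wild-type arrays. Wild-type replicate 3 lay within the klotho-deficient range and the other 2 wild-type arrays below it, and klotho-deficient replicate 3 was not low. The difference was 0.40 ± 0.27 with a 95% interval of -0.26 to 1.07 (adjusted p = 0.83); it rests on 1 probe set. Without wild-type replicate 3 it was 0.65.

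The partner chains Krt8 and Krt18 thus did not run in parallel across the arrays. The log2 signal of Krt8 minus that of Krt18 was -1.50, -1.12 and -2.46 on klotho-deficient replicates 1, 2 and 3 and -0.54, -0.58 and -0.06 on the wild-type arrays. Every klotho-deficient array lay below every wild-type array, with means of -1.69 ± 0.69 and -0.39 ± 0.29 (SD, n = 3). The gap between genotypes was -1.30, and -0.75 without replicate 3 of both. A two-sided exact permutation test gave p = 0.1, the smallest that 3 against 3 arrays allow, and the pair was picked after its values were seen. Neither gene passed in limma, and the share of other gene pairs with no overlap was not measured. The gap sets 1 probe set of each gene side by side and does not give the ratio of the proteins.

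Of the uroplakins, Upk3b measured 18332.7, 16599.6 and 10240.2 in klotho-deficient roots and 21856.3, 19184.0 and 29465.2 in wild type. The genotypes did not overlap. The difference was -0.66 ± 0.30 (adjusted p = 0.77), and its other probe set gave -0.83 ± 0.39 with overlap.

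Upk1b, a tetraspanin-type uroplakin, measured 2421.4, 2071.8 and 1304.3 against 2025.4, 2315.9 and 3679.5. Replicates 1 and 2 of the 2 genotypes were interleaved. The difference was -0.47 ± 0.34 (adjusted p = 0.837) for the probe set used, and -0.92 ± 0.40, -0.60 ± 0.41 and -0.81 ± 0.41 for the other 3, the first of them with no overlap of the genotypes. The 4 probe sets shared a direction, and all 4 were highest on wild-type replicate 3 and lowest on klotho-deficient replicate 3.

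Wt1, the transcription factor of epicardium, measured 1340.6, 1209.7 and 757.5 in klotho-deficient roots and 1368.9, 1392.4 and 2681.1 in wild type. The genotypes did not overlap, but the highest klotho-deficient and the lowest wild-type array were nearly equal. The difference was -0.69 ± 0.36 (adjusted p = 0.804), and -0.12 without replicate 3 of both genotypes.

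The surface pair Msln and Muc16 showed little difference in means. Msln measured 4217.4, 2804.3 and 2457.2 against 2908.2, 2522.5 and 5156.3, with klotho-deficient replicate 1 and wild-type replicate 3 high and the other 4 arrays close together. The difference was -0.13 with a 95% interval of -0.99 to 0.73 (adjusted p = 0.961). Muc16 measured 1428.2, 903.8 and 419.1 against 899.9, 699.6 and 783.1, so the klotho-deficient arrays spanned the wild-type range on both sides. The difference was 0.045 with an interval of -1.06 to 1.15 (adjusted p = 0.991). Muc16 was the 1 member whose highest wild-type array was not replicate 3.

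Of the 16 probe sets, 14 had a lower mean log2 signal in klotho-deficient roots, against 48.5% of all probe sets, and 5 had no overlap, all 5 lower. In the fit over all 45037 probe sets that are not controls, 5.71% lay wholly lower and 5.96% wholly higher. Limma called 0 of the 16 (0% of all probe sets higher or lower), the smallest unadjusted p being 0.0568, where 5.36% of all probe sets were under 0.05, and the smallest adjusted p 0.926. Highest on wild-type replicate 3 were 14 of the 16, and lowest on klotho-deficient replicate 3 were 15. Names ending in _x_at or _s_at mark probe sets that can match transcripts of more than 1 gene. They gave 2 of the 3 Krt8 signals, 2 of the 4 Upk1b signals, 1 of the 2 Upk3b signals and the Wt1 signal.

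Most of the difference lay in the pair of arrays numbered 3. Of all 6 arrays, wild-type replicate 3 was the highest in 8 of the 10 members, against 25.5% of the 13322 genes above background, and klotho-deficient replicate 3 the lowest in 9, against 18.2%. Wild-type replicate 3 was the highest of the wild-type arrays in 9 of 10 members and klotho-deficient replicate 3 the lowest of the klotho-deficient arrays in 9 of 10, with both true of 8. Of the genes above background, 43.1% were highest among wild-type arrays on replicate 3, 33% lowest among klotho-deficient arrays on replicate 3, and 11.2% both. The mean over the 10 members of log2 signal minus the gene's own mean was 0.17, -0.10 and -0.77 on klotho-deficient replicates 1, 2 and 3. It was 0.06, -0.06 and 0.70 on the wild-type arrays. In this mean, replicates 1 and 2 of both genotypes lay within one narrow band, which the 2 remaining arrays left in opposite directions. Single members did not all do so: Krt18 was not low on klotho-deficient replicate 3, at 5781.1.

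The median difference of the members was -0.37 without wild-type replicate 3, -0.39 without klotho-deficient replicate 3 and -0.10 without both. With both left out, an alternative added after the data were seen, 6 of the 10 were lower and 4 higher. Lrrn4, Krt19, Upk3b and Wt1 still did not overlap between the 2 remaining pairs, at differences of -0.36, -0.29, -0.23 and -0.12; in such pairs of 2 against 2, 20.7% of all genes lay wholly lower. Krt18 and Muc16 then lay wholly higher, at 0.63 and 0.52, as did 21.9% of all genes, so 2 of the 10 is near the background. Wild-type replicate 3 was also the array with the highest Gapdh ratio, and klotho-deficient replicate 3 was 1 of the 2 arrays low in Y-linked transcripts. The part of either in these values was not tested by itself; with the Y-linked level as a covariate the median difference was -0.31.

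**Figure D2:**
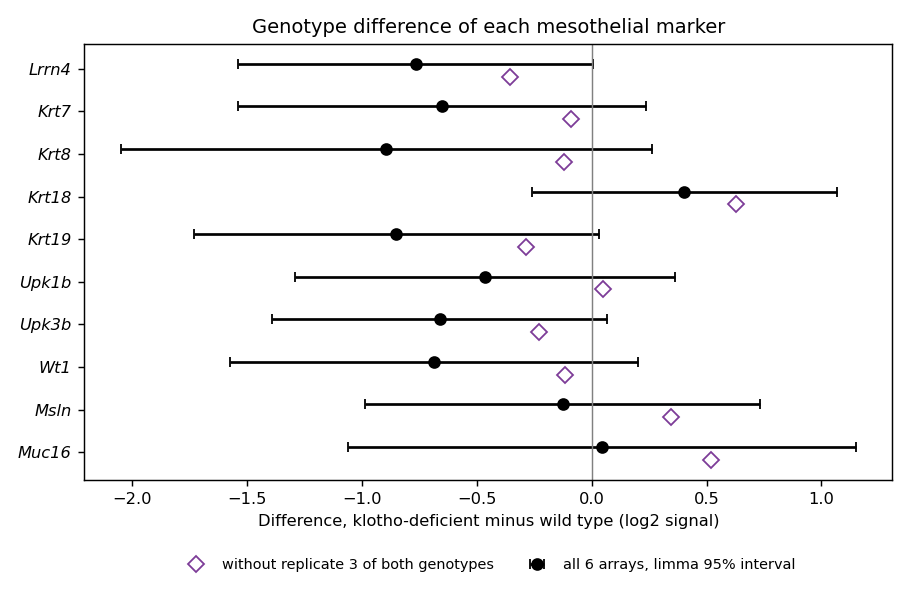
Difference between genotypes for each mesothelial marker (x axis, log2 of klotho-deficient over wild type); filled points use all 6 arrays, with the 95% interval from limma, and open diamonds leave out replicate 3 of both genotypes. All 10 intervals include 0, and without the 2 arrays the differences of Krt7, Krt8, Upk1b and Wt1 lie near 0.

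Other genes of mesothelium and epicardium were read from a list of 24, of which 23 were measured and 22 were above background; Calb2 was not. Of the 23, 15 were lower and 8 higher in klotho-deficient roots, with a median difference of -0.34. Limma called 0 of them over all genes, the smallest adjusted p being 0.733. At an unadjusted p under 0.05, 6 were lower (Bnc2, Rspo1, Aldh1a2, Cldn15, Pdpn and Efemp1) and 0 higher, where 3.16% of all genes were lower at that level. The genotypes did not overlap in 9, with 8 lower (these 6, Gpm6a and Aldh1a1) and 1 higher, Sema3d; of all genes 6.84% lay wholly lower and 6.63% wholly higher. Bnc2 and Pdpn are named here after their values were seen.

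Aldh1a2, the enzyme that makes retinoic acid in epicardium, differed most. It measured 2317.2, 1960.9 and 997.2 on the klotho-deficient arrays and 3294.7, 2794.4 and 5596.9 on the wild-type arrays, the same outer arrays as the members. The difference was -1.17 ± 0.42 (adjusted p = 0.753), and -0.51 without replicate 3 of both genotypes. Cldn15, a tight junction protein, measured 1954.8 ± 598.3 against 3669.9 ± 1178.8, a difference of -0.91 ± 0.34 (adjusted p = 0.763). Rspo1, a secreted enhancer of Wnt signalling, measured 2475.8 ± 433.1 against 4386.2 ± 1305.6, a difference of -0.80 ± 0.27 (adjusted p = 0.733).

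Gpm6a, a membrane glycoprotein, measured 12600.4 ± 1780.7 on the klotho-deficient and 17092.4 ± 2977.4 on the wild-type arrays (-0.44 ± 0.21). Efemp1, the matrix protein fibulin-3, measured 8217.2 ± 1167.3 against 12283.2 ± 2422.0 (-0.57 ± 0.22). Aldh1a1, a retinaldehyde dehydrogenase, measured 9467.5, 8293.7 and 11411.7 against 12205.9, 13042.3 and 17894.8. For Aldh1a1 klotho-deficient replicate 3 was the highest of its genotype, unlike the members, and the difference was -0.56 ± 0.23, or -0.51 without replicate 3 of both genotypes.

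Other transcription factors of epicardium and its derivatives differed in their order of arrays. The zinc finger proteins Bnc1 and Bnc2 were lowest on klotho-deficient replicate 3, at 1084.4 and 803.8, but neither was highest on wild-type replicate 3. Bnc1 gave -0.27 ± 0.29 with overlap and Bnc2 -0.66 ± 0.23 without (adjusted p = 0.749). Tbx18 measured 3935.7 ± 415.4 on the klotho-deficient and 2910.1 ± 706.2 on the wild-type arrays (0.46 ± 0.24), being lowest on wild-type replicate 3. Tcf21 gave -0.30 ± 0.21, and Gata4, Gata5 and Gata6 gave 0.18 ± 0.38, 0.04 ± 0.28 and 0.21 ± 0.22. Sema3d, a guidance factor, measured 2953.7 ± 362.7 against 2172.6 ± 391.2 without overlap (0.45 ± 0.22). None of these passed in limma over all genes, and the genes of this paragraph were picked after their values were seen.

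**Figure D3:**
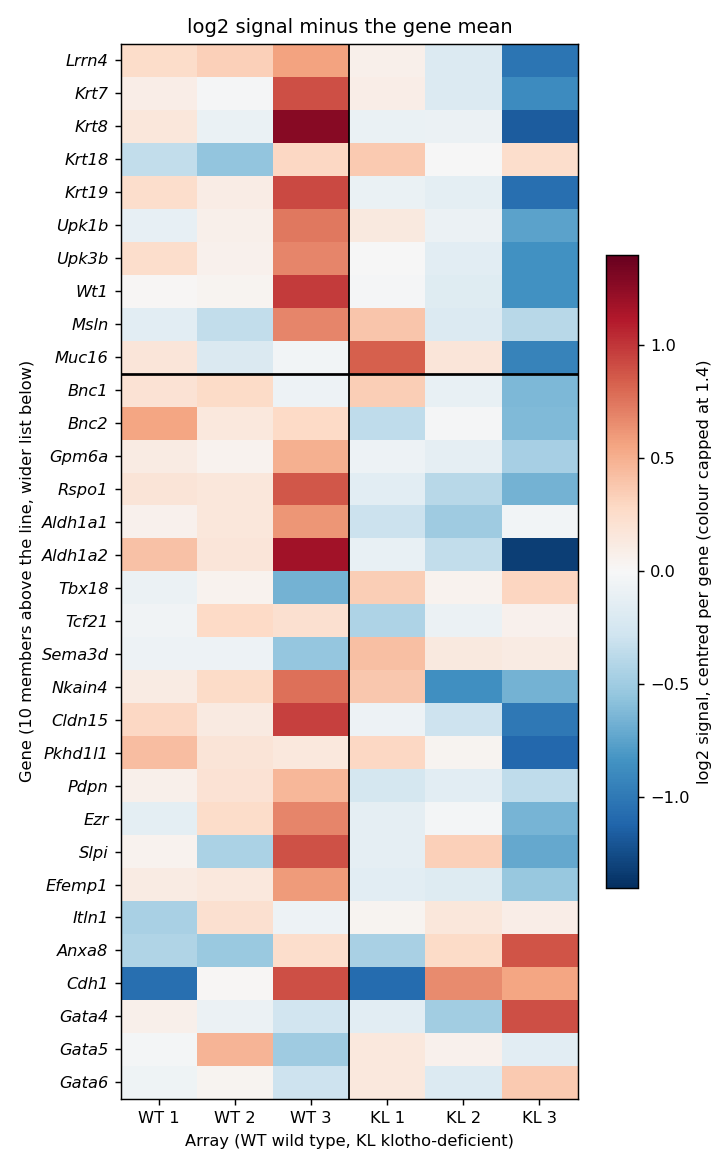
Log2 signal of each gene minus its mean over the 6 arrays (colour, red higher and blue lower) for the 10 members above the line and the 22 genes of the wider list above background below it; columns are the arrays, WT wild type and KL klotho-deficient. Most members, with Aldh1a2, Cldn15 and Rspo1, are red on WT 3 and blue on KL 3, while Krt18, Tbx18, Sema3d and the Gata genes are not.

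Likeness to the members was measured as Pearson's r, over the 6 arrays, with the mean centred profile of the members, and all r share the same arrays and RNA. Each member was set against the mean of the other 9: r was over 0.9 for 6 of the 10, from 0.947 for Krt19 to 0.99 for Krt7, and was 0.876 for Lrrn4, 0.816 for Msln, 0.526 for Muc16 and 0.026 for Krt18. In the wider list r was over 0.9 for 4 of 23, namely Gpm6a, Aldh1a2, Cldn15 and Efemp1, and 1.58% of the 13322 genes above background had such an r. Without replicate 3 of both genotypes only 4 arrays remain, and r for the members then ran from -0.079 for Krt19 to 0.813 for Krt7. It was 0.024 for Lrrn4, 0.081 for Krt8, 0.249 for Upk3b, 0.275 for Krt18 and 0.374 for Upk1b. For Wt1, Muc16 and Msln it was 0.379, 0.626 and 0.782.

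The 5 genes outside the list with the highest r were Rfc4 (0.996, Spearman's rho 1.0), Hacd1 (0.989, rho 1.0), Cdk16 (0.989, rho 0.943), Rab2a (0.986, rho 0.943) and Ywhae (0.986, rho 0.943). They were picked as the highest of 13322 genes above background on these same 6 arrays, so a high r followed from the choice. Without replicate 3 of both genotypes r ran from 0.842 for Cdk16 to 1.0 for Rfc4. Differences of these 5 genes between genotypes were small, from -0.13 for Ywhae to -0.25 for Hacd1. Rfc4, a subunit of the clamp loader of DNA replication, measured 833.9 ± 136.8 on the klotho-deficient and 968.4 ± 118.2 on the wild-type arrays.

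Markers of other cells in or near the sample were also read, and a lower median was not particular to the members. The median difference was -0.69 over 8 lung and airway genes and -0.515 over 4 endothelial genes. It was -0.34 over 13 genes of stratified and other epithelium and -0.66 over the members. Adipocyte, cardiomyocyte, fibroblast and elastic wall genes gave -0.21, -0.19, -0.16 and -0.035. Smooth muscle, thymic epithelial and urothelial genes gave 0.001, 0.18 and 0.21. Of 13 measured genes of stratified and other epithelium, 10 exceeded background on some array; Krt5, Krt13 and Krt1 did not. Their summed signal was 3286.9 to 4827.3 over the klotho-deficient and 4638.2 to 5987.8 over the wild-type arrays. The members summed to 26154.5 to 44588.2 and 40695.6 to 67746.0, so their groups overlapped.

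Of 8 lung and airway genes, 6 were above background (not Sftpb or Foxj1), with sums of 1085.4 to 3116.6 and 1687.1 to 12149.7. The highest sum was on wild-type replicate 2, owing mainly to Scgb1a1, the secretoglobin of airway club cells, singled out after its values were seen, at 8330.6 there and 378.5 to 2084.8 on the other arrays. Of 4 thymic epithelial genes, 3 exceeded background, with sums of 218.7 to 727.4 and 281.8 to 433.2. None of these lists had a gene at 0. Of 4 urothelial genes, 3 exceeded background (not Upk2), with sums of 496.5 to 602.2 and 376.2 to 662.8; Upk1a, Upk2 and Upk3a ran from 25.4 to 298.5 over the 6 arrays.

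Adventitial fibroblast genes, from the layer next to the mesothelium, were above background in 7 of 7, with sums of 67881.4 to 75336.6 and 79162.6 to 85049.3, which did not overlap. By single gene, 1 of the 7 lay wholly lower, against 6.84% of all genes, and the median difference was -0.16. Adipocyte genes were above background in all 6 measured, with sums of 21253.1 to 36528.2 and 30478.9 to 37488.9. Endothelial genes summed to 12021.4 to 13978.4 and 14286.6 to 23469.2, also without overlap, highest on wild-type replicate 3. By single gene, Tek and Tie1 lay wholly lower, 2 of the 4, against 6.84% of all genes. Pecam1 and Cdh5 overlapped, at differences of 0.075 and -0.59. Tek, a large part of the sum, measured 5924.4 ± 364.7 against 9234.8 ± 1733.9. Wild-type replicate 3 was thus high in fibroblast, endothelial and mesothelial markers, and klotho-deficient replicate 3 was low in mesothelial, adipocyte and airway markers. Klotho-deficient replicate 3 also had the lowest fibroblast and smooth muscle sums, at 67881.4 and 117021.3. Adipocyte markers were lowest of each genotype on replicate 3, with centred means of -0.43 in wild type and -0.83 in klotho-deficient roots. The part of tissue makeup in the members' values was not tested.

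**Figure D4:**
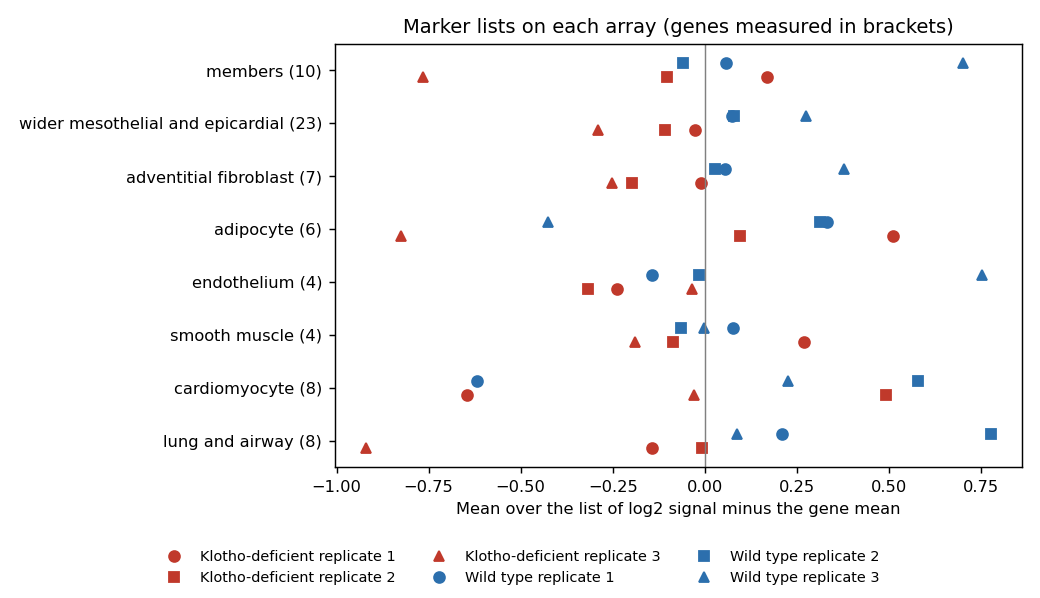
Mean over each marker list of log2 signal minus the gene's own mean (x axis) on each array; blue symbols are wild type, red klotho-deficient, and triangles replicate 3. The 10 members run from -0.77 on klotho-deficient replicate 3 to 0.70 on wild-type replicate 3, with the other 4 arrays between -0.10 and 0.17.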

How the data were processed

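Affymetrix signals were measured in 6 pools of aortic roots. Per the labels' protocols, Trizol extraction was followed by NuGEN amplification and biotin labelling. The authors deposited linear intensity values, 1 per probe set for 45101 probe sets, from 0.1 upwards with none at 0. RMA is named in the submitters' processing notes; RMA usually gives log2 values, and the 2% trimmed mean was 1500.0 on every array, so the step behind the deposited scale is not known here. A genome build was not given in those sources. Signals were log2-transformed with no offset. Each gene was represented by its probe set of highest mean log2 signal, and genes with a mean log2 signal above the highest Bacillus control were counted as above background (13322 of 18193). A list gene was called above background where any of its probe sets exceeded that level on any array.

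The test was limma 3.58.1 under R 4.3.3 (lmFit, then eBayes), two-sided, with p-values adjusted over all genes or all probe sets by Benjamini-Hochberg and a threshold of 0.05; the residual degrees of freedom were 4 and the prior added 2.1. Differences are given with SE and signals as mean ± SD over 3 arrays, whose number limits precision. The procedure was tested on simulated data. The members, marker lists and tests were chosen with earlier results of these data known. Named genes were all members, Kl, the 3 genes of largest difference and the 3 of highest signal in the wider list, the 5 most alike, the other keratins and uroplakins above background (5 with values, the rest by name and range), and those said in the text to be named after their values were seen. Alternatives were quantile normalization, median centring, a replicate block, a filter on dim genes, another variance prior, array weights, the mean of a gene's probe sets, an offset of 100, a Y-linked covariate, each array left out, and both arrays numbered 3 left out. Motifs were searched in RefSeq promoters of GRCm38.p6; 4 members had no entry there. Figures were drawn with matplotlib 3.10.9.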

Additional observations from a re-analysis of the deposited data

How the results depend on the processing

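Limma called 0 of the 10 members, 0 of the 16 member probe sets and 0 of the 23 wider genes under every alternative run. Over all genes it called 0 under most of them, 1 with only genes above background, with array weights or with an offset of 100, 2 with the trended and robust variance prior, and 0 to 1 when single arrays were left out; none was a member. It is not known here whether the replicate number pairs the arrays. Deviations of same-numbered arrays correlated at 0.165, -0.0097 and 0.161 for replicates 1, 2 and 3, and 4 of 6 arrays were best matched by their own number. With the replicate block the members' median difference was -0.66 and calls stayed at 0. The members' median difference was -0.84 to -0.37 when single arrays were left out and -0.10 without replicate 3 of both genotypes; that of the wider list was -0.52 to -0.23, and -0.18 without both. Msln turned to 0.23 with array weights, 0.26 with the Y-linked covariate and 0.35 without replicate 3 of both genotypes, with -0.36 to 0.18 over single arrays left out; Upk1b turned to 0.048 without both; Muc16 ran from -0.36 to 0.52 over single arrays left out. With the Y-linked covariate Muc16 was at 0.83 ± 0.46, its highest under any alternative. The cause of these turns of direction was not tested. The other 7 members kept their direction under all alternatives run. Array weights gave a median of -0.32 and quantile normalization -0.64.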

Other observations

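Keratins and uroplakins outside the list were mostly dim. Of 44 measured, 27 exceeded background on some array and 18 had a mean log2 signal above it; 22 were lower in klotho-deficient roots, 3 lay wholly lower (Krt24, Krt76 and Upk3a) and 3 wholly higher (Krt5, Krt42 and Krt88), shares near those over all genes, 6.84% and 6.63%. The 5 genes described next were picked after their values were seen. Krt14, a keratin of basal epithelial cells, measured 484.9, 665.5 and 368.8 on the klotho-deficient arrays and 613.2, 700.6 and 1337.0 on the wild-type arrays, so its outer arrays were those of the members. Krt10, a keratin of differentiated epidermis, measured 1888.8 ± 633.2 against 2426.6 ± 333.0 and was lowest on klotho-deficient replicate 1. Krt42 was wholly higher in klotho-deficient roots, at 1117.8 ± 149.7 against 642.6 ± 209.9 (0.84), and Krt88 at 396.1 ± 23.92 against 270.6 ± 54.17 (0.57). Upk3a, a bladder uroplakin near background, was wholly lower at 166.5 ± 12.63 against 264.8 ± 36.04 (-0.66). The others above background were Krt4, Krt12, Krt15, Krt20, Krt23, Krt24, Krt28, Krt31, Krt32, Krt34, Krt36, Krt71, Krt77, Krt79, Krt80, Krt81, Krt83, Krt84, Krt86, Krt222, Upk1a and Upk3bl, with differences from -1.26 for Krt71 to 1.44 for Upk3bl and no overlap only in Krt24. Both ends of this range rest on signals below background. Upk3bl exceeded the background of 161.8 only on klotho-deficient replicate 2, at 178.9. Krt71 was at 44.0 and 68.8 on klotho-deficient replicates 1 and 3. None of the 44 passed in limma over all genes. At an unadjusted p under 0.05 were Krt15 and Upk3a, lower, and Krt42 and Krt88, higher, where there were 1166 of all genes (6.41%).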
